A study of Mus musculus with 9 samples.

Results

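The guanylate-binding proteins (GBPs) and the immunity-related GTPases (IRGs) were examined in mouse macrophages that make either wild-type tristetraprolin (TTP, gene Zfp36), a phosphosite mutant of it, or neither. The 10 genes were taken by name and were Gbp2, Gbp3, Gbp5, Gbp7, Gbp9, Irgm1, Irgm2, Igtp, Iigp1 and Ifi47, out of 25494 genes with library values. All but Iigp1 were tested in each comparison, 9 of the 10. The cells were bone marrow-derived macrophages of Zfp36 knockout mice, immortalized with MYC and RAS, sorted on the surface markers coded by Itgam and Adgre1, and then transduced with a doxycycline-inducible retroviral vector. The vector carried GFP alone (GFP), GFP fused to TTP (TTP) or GFP fused to TTP with alanine at both serines that the kinase MK2 phosphorylates (TTP-AA). Cells were sorted for GFP. Doxycycline lasted 6 h in all groups and lipopolysaccharide (LPS) 1 h, both at 1 µg/ml. There were 3 libraries a group, of total RNA without ribosomal RNA. Every library was induced, so an effect of the transgene cannot be told apart from other differences between the transduced lines. Only the coding sequence of TTP was in the vectors.

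Both families are GTPases of the cell's own defence, made at low levels until interferon or microbial products switch them on. GBPs belong to the dynamin superfamily and gather on vacuoles of bacteria and parasites and on free bacteria, where they help to open the vacuole and feed bacterial LPS to the inflammasome. IRGs fall into a regulatory class (Irgm1, Irgm2 and Igtp, the last also called Irgm3), which sits on the cell's own membranes and holds the other class inactive, and an effector class (Iigp1 and Ifi47), which loads onto pathogen vacuoles. Their promoters typically hold an interferon-stimulated response element (ISRE) or a gamma-activated site (GAS), through which interferons act. TTP itself acts on mRNA, binding AU-rich elements of 3′ untranslated regions (3′UTRs) and promoting decay.

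The promoter sequences are shown first because most of the members share a motif there. RefSeq promoters (GRCm38.p6, 250 bases before to 50 bases after each annotated start) were found for 8 of the members. Gbp9 had no entry, and that of Iigp1 is not used here. The row named Gbp5 in the files carries ENSMUSG00000040264, an identifier that GENCODE mouse release 21 names Gbp2b, so the promoter of Gbp2b was used for it. The letters GAAANNGAA, the core of an ISRE, were searched on both strands and the letters TTCNNNGAA were searched for a GAS, which reads alike on both strands. An ISRE core was found in 7 of the 8 members and in 8.56% of all 32851 promoters of this length. A GAS was found in 3 of the 8 members (Gbp7, Igtp and Irgm2) and in 8.30% of all promoters. The promoter that RefSeq names Gbp5 held 2 GAS and 1 ISRE core and is not in these counts. The GAS count thus depends on which gene the row named Gbp5 is. The 150 bases directly before the start are given here on the strand of the gene, with matches in capitals.
Gbp2, chr3:142620513-142620662, plus strand: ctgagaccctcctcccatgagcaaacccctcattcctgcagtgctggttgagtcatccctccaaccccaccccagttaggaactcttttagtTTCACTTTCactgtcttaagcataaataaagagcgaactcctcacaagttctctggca
Gbp3, chr3:142559894-142560043, plus strand: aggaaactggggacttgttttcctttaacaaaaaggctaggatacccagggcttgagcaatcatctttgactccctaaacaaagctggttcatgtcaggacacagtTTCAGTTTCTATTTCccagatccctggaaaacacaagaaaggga
Gbp7, chr3:142530186-142530335, plus strand: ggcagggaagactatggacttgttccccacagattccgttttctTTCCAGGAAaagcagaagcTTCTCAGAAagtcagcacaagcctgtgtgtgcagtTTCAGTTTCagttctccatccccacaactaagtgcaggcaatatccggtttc
Gbp2b, for the row named Gbp5, chr3:142594697-142594846, plus strand: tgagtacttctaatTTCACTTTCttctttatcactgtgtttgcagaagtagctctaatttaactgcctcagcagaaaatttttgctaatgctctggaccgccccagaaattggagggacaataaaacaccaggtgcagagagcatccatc
Irgm1, chr11:48871421-48871570, minus strand: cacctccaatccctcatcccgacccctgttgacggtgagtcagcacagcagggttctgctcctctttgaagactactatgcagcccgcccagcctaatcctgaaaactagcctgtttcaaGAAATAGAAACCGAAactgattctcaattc
Irgm2, chr11:58214827-58214976, plus strand: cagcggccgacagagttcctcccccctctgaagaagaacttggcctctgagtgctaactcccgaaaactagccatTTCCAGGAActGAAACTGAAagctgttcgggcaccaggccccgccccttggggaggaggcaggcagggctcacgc
Igtp, chr11:58199406-58199555, plus strand: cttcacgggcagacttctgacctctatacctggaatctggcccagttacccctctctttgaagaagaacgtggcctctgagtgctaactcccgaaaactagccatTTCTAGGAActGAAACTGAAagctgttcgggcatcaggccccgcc
Ifi47, chr11:49076437-49076586, plus strand: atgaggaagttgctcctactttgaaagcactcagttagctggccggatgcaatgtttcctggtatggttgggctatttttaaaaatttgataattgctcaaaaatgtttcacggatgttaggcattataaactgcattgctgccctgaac

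The ISRE core lay 58 to 50 bases before the start in Gbp2, on the minus strand. Gbp3 and Irgm1 each held 2 ISRE cores that overlap each other, beginning 44 and 38 bases before the start in Gbp3 and 30 and 24 bases before it in Irgm1. Gbp3 has a second annotated start, whose promoter held no match. In Gbp7 a GAS began 106 and another 87 bases before the start, and the ISRE core followed at 52. The promoter regions of Igtp and Irgm2 shared an identical run of 61 bases, the longest of any pair of members. In both, an ISRE core closely followed a GAS. The GAS ended 37 bases before the start and the core began at 34 in Igtp, and at 67 and 64 in Irgm2. In Ifi47 neither set of letters occurred in the 300 bases. A match describes the letters only, and its absence says nothing of other positions or of the factors.

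**Figure D1:**
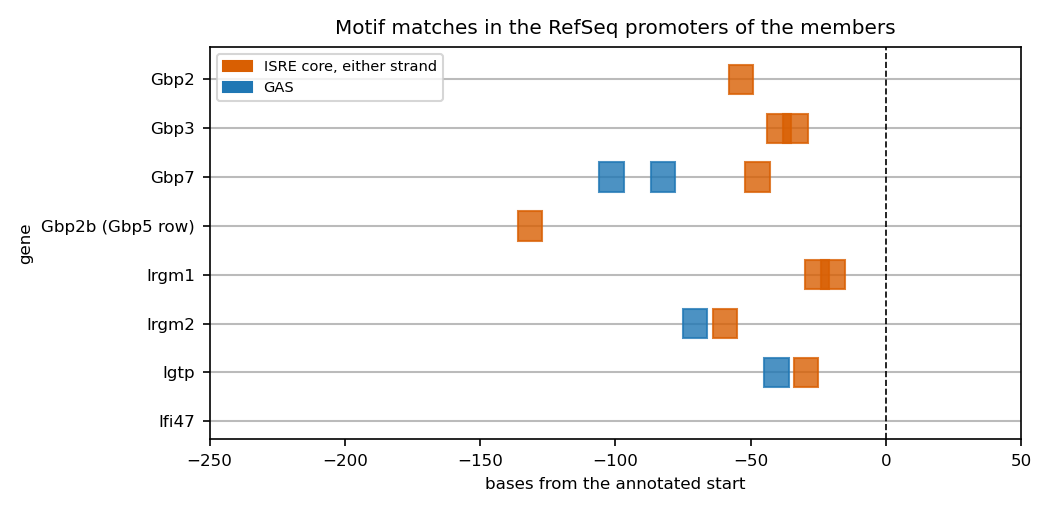
Matches to the ISRE core (orange) and the GAS (blue) in the promoters of 8 members, drawn in bases from the annotated start (dashed line), 250 before to 50 after. The ISRE core begins 30 to 64 bases before the start in Irgm1, Igtp, Gbp3, Gbp7, Gbp2 and Irgm2 and at 136 in Gbp2b, and Ifi47 has none.

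The values per library need a word before they are read. The deposited library table holds fitted means of the authors' model, made of a library factor, a term for the replicate number and a term for the group, and so it has no scatter of its own between replicates. Centred on the log2 scale it had a rank of 4, below the 8 possible with 9 independent libraries, and it held no 0. Levels below are these fitted means divided by the library factor, called fitted normalized counts. Whether groups overlap in them follows from the sizes of the fitted terms and shows no agreement between measured replicates. The error of each comparison is the standard error (SE) in the authors' deposited tables, from 3 libraries a group with library date as a term, and the adjusted p is that of the authors' DESeq2 Wald test, two-sided, over all genes in the table. A gene was called at an adjusted p under 0.05. The highest SE in the tables was 0.23, also for genes with few reads. Sums of fitted means, which stand in for depth, ran from 21482954 (TTP replicate 1) to 102613526 (TTP-AA replicate 3). Zfp36 was at 0.04 ± 0.17 on the log2 scale in TTP relative to GFP (adjusted p = 0.93), so its RNA did not tell those groups apart, and rose by 0.69 ± 0.17 in TTP-AA (adjusted p = 0.00068). All 8 macrophage markers were in the table, from Mertk at 15.1 to 21.2 fitted normalized counts to Lyz2 at 414968 to 797114, with Adgre1 at 8391 to 34164. Of the dendritic cell markers, Flt3 stood at 193 to 278, Zbtb46 at 13.7 to 46.9 and Siglech at 0.855 to 0.910. 11 of 17 markers of T cells, B cells, neutrophils, fibroblasts and epithelium were in the table, at 0.109 to 5.25, and none was in the comparison tables.

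Per length of transcript the members spanned a wide range of levels. As the authors' mean normalized count per kilobase, Irgm1 stood at 363, Ifi47 at 258, Gbp3 at 138 and Gbp2 at 132. Igtp followed at 59.7, the row named Gbp5 at 24.9, Gbp7 at 23.2, Irgm2 at 22.9 and Gbp9 at 5.53. The ranges over the 9 libraries in fitted normalized counts per kilobase overlapped between each gene and the next in this order, apart from Igtp (50.5 to 69.6) and the row named Gbp5 (12.2 to 33.0), and Irgm2 (15.7 to 30.1) and Gbp9 (2.86 to 7.77). The 2 scales differ, as the mean fitted normalized count was 0.79 times the authors' mean for the row named Gbp5 and 0.88 times for Gbp2. For the other tested members it was 0.93 to 1.00 times that mean. Iigp1, an effector IRG that coats parasite vacuoles, was fitted at 1.43 to 1.76 normalized counts, near the floor of the measurement, and was not tested. Among the abundant members 1 was a regulator (Irgm1) and 1 an effector (Ifi47), so the classes did not sort by level.

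All 5 GBP rows were called higher in TTP-AA than in TTP, with GFP between, and Gbp3 and Gbp7 also passed the test against GFP in both directions. Gbp3 (ENSMUSG00000028268, chr3:142560026-142573209, plus strand, GRCm38), a GBP of the chromosome 3 cluster, had 214, 222 and 479 fitted normalized counts in GFP replicates 1 to 3. It had 112, 116 and 251 in TTP and 395, 410 and 885 in TTP-AA. Replicate 3 was high in every group, so the groups overlapped across numbers although the order was the same within each number, as the fit imposes. Gbp3 fell by 0.93 ± 0.21 on the log2 scale in TTP relative to GFP (adjusted p = 0.00029). It rose by 0.89 ± 0.21 in TTP-AA relative to GFP (adjusted p = 0.00034). Between TTP-AA and TTP the difference was 1.82 ± 0.21, a 3.52-fold higher level in TTP-AA (95% interval on the log2 scale 1.41 to 2.22, adjusted p = 1.9e-16).

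Gbp2 (ENSMUSG00000028270, chr3:142620602-142638008, plus strand) codes for a GBP with a lipid anchor that targets it to parasite vacuoles. Its fitted normalized counts were 115, 166 and 412 in GFP, 77.3, 112 and 277 in TTP and 244, 353 and 873 in TTP-AA. The highest TTP library lay above 2 of the GFP libraries and above 1 of TTP-AA. Gbp2 differed by -0.57 ± 0.22 in TTP relative to GFP, which was not called (adjusted p = 0.079). It rose by 1.09 ± 0.22 in TTP-AA relative to GFP, 2.12-fold (adjusted p = 2e-05), and by 1.66 ± 0.22 relative to TTP, 3.16-fold (adjusted p = 1.8e-12). Of the 9 tested members its rise against GFP was the largest.

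Gbp7 (ENSMUSG00000040253, chr3:142530342-142550149, plus strand), reported to act in the defence against vacuolar parasites, had 102, 68.2 and 170 fitted normalized counts in GFP, 60.2, 40.1 and 100.4 in TTP and 172.5, 115 and 288 in TTP-AA. Here too replicate 3 was the highest of each group, but replicate 2 and not 1 was the lowest. Gbp7 fell by 0.76 ± 0.20 in TTP relative to GFP (adjusted p = 0.00397) and rose by 0.76 ± 0.20 in TTP-AA relative to GFP (adjusted p = 0.0017). TTP-AA was 1.52 ± 0.20 above TTP, 2.87-fold (adjusted p = 2.2e-12). Of the 50-base runs in the transcript of Gbp7, 12.85% also occur in another gene, most of them in Gm43802, which overlaps its exons on the same strand.

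Gbp9 (ENSMUSG00000029298, chr5:105077630-105139539, minus strand) lies in the other GBP cluster, on chromosome 5, and was the least abundant member tested. It had 18.6, 22.9 and 23.4 fitted normalized counts in GFP, 12.5, 15.4 and 15.8 in TTP and 27.0, 33.3 and 34.0 in TTP-AA. These fitted means did not overlap between groups, as the sizes of the fitted terms set. The differences from GFP were -0.57 ± 0.23 in TTP (adjusted p = 0.111) and 0.54 ± 0.23 in TTP-AA (adjusted p = 0.0924), neither of them called. TTP-AA stood above TTP by 1.11 ± 0.23, 2.16-fold (adjusted p = 3.1e-05). Exons of Gbp9 overlap Gbp8 and Gbp4 on the same strand, and 9.56% of its 50-base runs occur in other genes.

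The row named Gbp5, whose identifier is Gbp2b in the later annotation (chr3:142594847-142619179, plus strand), is uncertain in its identity. Gbp5 proper is a GBP known for inflammasome activation. The row had 38.9, 46.1 and 71.3 fitted normalized counts in GFP, 34.5, 40.8 and 63.2 in TTP and 50.7, 60.1 and 93.0 in TTP-AA. TTP-AA replicate 3 was the highest library, and the groups overlapped. The row differed by -0.17 ± 0.19 in TTP relative to GFP (adjusted p = 0.662) and by 0.38 ± 0.19 in TTP-AA relative to GFP (adjusted p = 0.154). Only the difference of TTP-AA from TTP was called, at 0.56 ± 0.19 (adjusted p = 0.015). This call was lost after centring on the chromosome median (adjusted p = 0.0513).

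**Figure D2:**
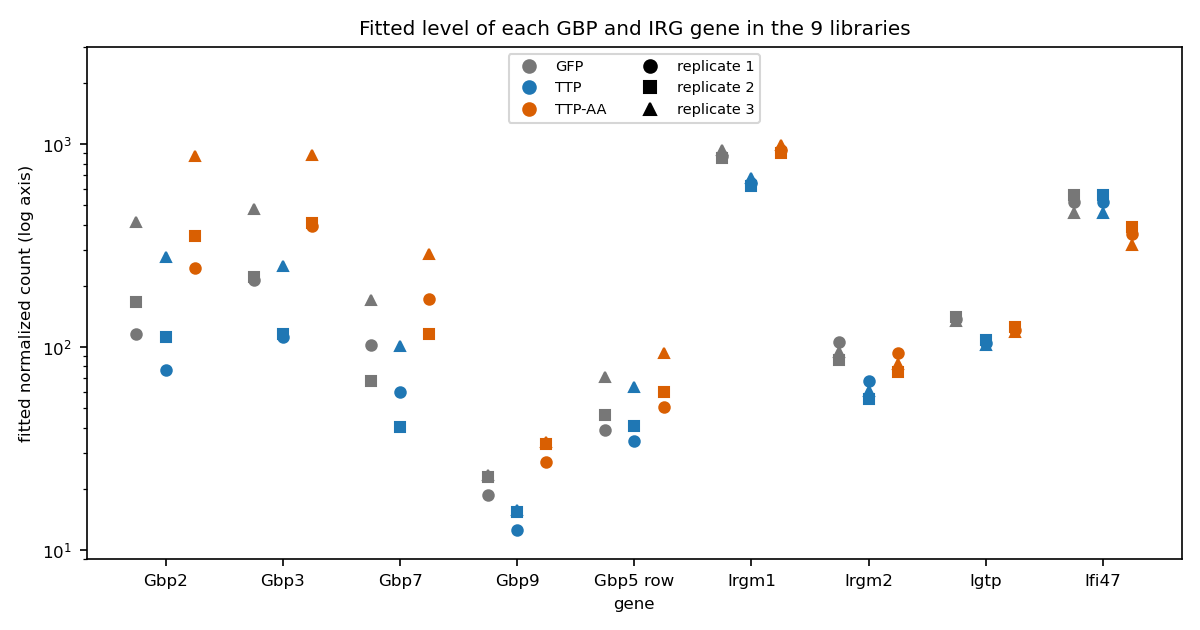
Fitted normalized counts (log axis) of the 9 tested members in the 9 libraries, by group (colour) and replicate number (symbol). The values are fitted means with no scatter between replicates. Replicate 3 is highest for Gbp2, Gbp3, Gbp7 and the row named Gbp5 in each group, and the points of the IRG genes lie close together.

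Of the 3 regulatory IRGs, Irgm1 and Irgm2 were called lower in TTP than in GFP, and none passed the test between TTP-AA and GFP. Irgm1 (ENSMUSG00000046879, chr11:48861968-48871683, minus strand), which guards host membranes and is linked to resistance to mycobacteria, was the most abundant member. Its fitted normalized counts were 873, 851 and 930 in GFP, 640, 623 and 681 in TTP and 928, 904 and 988 in TTP-AA. The fitted means of TTP did not overlap with those of the other groups, as the small replicate term sets. Irgm1 fell by 0.45 ± 0.12 in TTP relative to GFP, 1.37-fold (adjusted p = 0.00634). The difference between TTP-AA and GFP was 0.09 ± 0.12 (95% interval -0.15 to 0.33, adjusted p = 0.706). TTP-AA was higher than TTP by 0.54 ± 0.12 (adjusted p = 0.00017). Irgm1 shared few 50-base runs with other genes, 0.995%.

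Irgm2 (ENSMUSG00000069874, chr11:58199618-58222782, plus strand), a regulator found at the Golgi, had 106, 86.4 and 94.3 fitted normalized counts in GFP, 68.0, 55.4 and 60.4 in TTP and 92.8, 75.5 and 82.4 in TTP-AA. Every fitted mean of TTP lay below those of the other groups, which overlapped, as the sizes of the fitted terms set. Irgm2 fell by 0.64 ± 0.21 in TTP relative to GFP (adjusted p = 0.0308). Its difference was -0.19 ± 0.21 in TTP-AA relative to GFP (95% interval -0.60 to 0.21, adjusted p = 0.59). Between TTP-AA and TTP it was 0.45 ± 0.21 (adjusted p = 0.0976), and this passed the threshold after centring on the chromosome median (0.58, adjusted p = 0.0259).

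Igtp (ENSMUSG00000078853, chr11:58199556-58207591, plus strand), a regulator of the endoplasmic reticulum and lipid droplets, was called in none of the comparisons by the DESeq2 Wald test, although 1 of its unadjusted p-values was under 0.05 (0.0354 for TTP vs GFP). It had 136, 141 and 134 fitted normalized counts in GFP, 104, 108 and 102 in TTP and 121, 125 and 119 in TTP-AA. The fitted means of the 3 groups did not overlap, with TTP lowest, because the replicate term of the fit was small (a span of 0.07 on the log2 scale). Relative to GFP, Igtp differed by -0.39 ± 0.18 in TTP (adjusted p = 0.192) and by -0.17 ± 0.18 in TTP-AA (adjusted p = 0.586). TTP-AA lay 0.22 ± 0.18 above TTP (adjusted p = 0.412). Igtp and Irgm2 overlap in the annotation on the same strand, and 12.3% of the 50-base runs of Igtp occur in Irgm2, so reads may have been shared between them.

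Ifi47 (ENSMUSG00000078920, chr11:49076587-49096974, plus strand), an effector IRG also called Irgd, was the only member called lower in TTP-AA, against GFP and against TTP. It had 518, 560 and 456 fitted normalized counts in GFP, 516, 559 and 454 in TTP and 361, 391 and 318 in TTP-AA. The fitted means of Ifi47 in TTP-AA lay below all those of the other groups, as the sizes of the fitted terms set. In TTP relative to GFP its difference was -0.0038 ± 0.14 (95% interval -0.28 to 0.28, adjusted p = 0.992). It fell by 0.52 ± 0.14 in TTP-AA relative to GFP, 1.43-fold (adjusted p = 0.00352), and by 0.51 ± 0.14 relative to TTP (adjusted p = 0.00228). Exons of Ifi47 overlap Olfr56 on the same strand and Gm12188 on the other, and 3.71% of its 50-base runs occur in other genes.

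**Figure D3:**
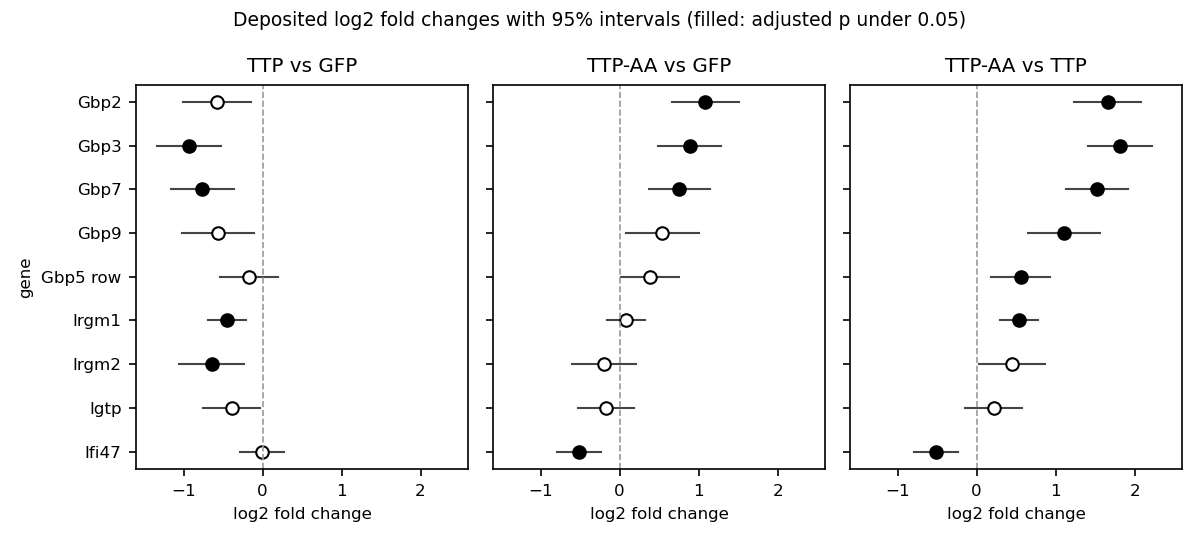
Deposited log2 fold changes of the 9 tested members with 95% intervals (1 panel a comparison); filled points have an adjusted p under 0.05. All points lie at or below 0 in the TTP vs GFP panel, while those of TTP-AA vs TTP run from 1.82 for Gbp3 to -0.51 for Ifi47.

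Counted together, 4 of the 9 tested members were called for TTP vs GFP, all of them lower (Gbp3, Gbp7, Irgm1 and Irgm2). Of all 11977 genes tested there, 9.16% were called, 5.08% lower and 4.08% higher. The members had a median log2 fold change of -0.57, against 0.01 over all genes. For TTP-AA vs GFP, 3 were called higher (Gbp2, Gbp3 and Gbp7) and 1 lower (Ifi47), beside 17.9% of all 13205 genes called, 9.11% higher and 8.77% lower. The median was 0.38 over the members, 0.76 over the 5 GBPs and -0.18 over the 4 IRGs. For TTP-AA vs TTP, 6 were called higher (all 5 GBP rows and Irgm1) and 1 lower (Ifi47). That comparison called 28.6% of all genes, 14.0% higher and 14.6% lower. The members' median was 0.56 there, with 1.52 over the GBPs and 0.33 over the IRGs, against -0.01 over all genes. The comparisons with GFP share the GFP libraries, and the changes are additive by construction of the fit. Gbp9, with a mean of 24.2, and the row named Gbp5, with 70.4, were among the members whose differences from GFP did not pass.

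The calls rest on the size of the deposited errors. The Wald scores of all genes had a central spread of 1.51, 1.77 and 2.17 times that of a standard normal in the 3 comparisons in the order above. Divided by that spread, the scores left none of the members called for either comparison with GFP, and 3 (Gbp2, Gbp3 and Gbp7) for TTP-AA vs TTP.

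**Figure D4:**
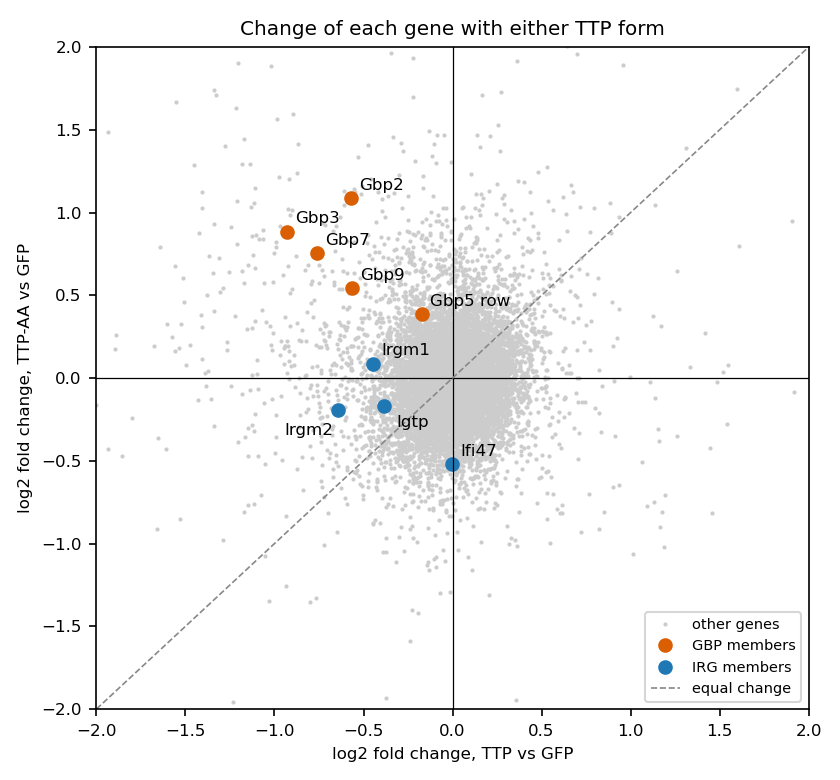
Log2 fold change of TTP vs GFP (x axis) and TTP-AA vs GFP (y axis) for 11977 genes (grey) with GBP members in orange and IRG members in blue; 47 genes lie beyond the axes. Gbp2, Gbp3, Gbp7 and Gbp9 lie in the upper left, Irgm2 and Igtp in the lower left and Ifi47 on the vertical axis below 0, and both axes share the GFP libraries.

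The replicate number had a large term in the GBPs of chromosome 3. In the fit, Gbp2 was 3.58-fold higher in replicate 3 than in replicate 1, a span of 1.84 on the log2 scale that was reached by 0.644% of all genes. The span was 1.16 for Gbp3, 1.32 for Gbp7 and 0.88 for the row named Gbp5. It was 0.33 for Gbp9 on chromosome 5, and 0.07 to 0.30 for the tested IRGs. The median over all genes was 0.32. In Gbp2 and the row named Gbp5 the replicate numbers differed by more than the groups did (group spans of 1.66 and 0.56), as in 59.9% of all genes. The replicate numbers carry the library date of the authors' model, and the files used here do not show what else differed between dates. Whether the group differences were equal in each replicate was not tested, since the fitted means make them equal.

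**Figure D5:**
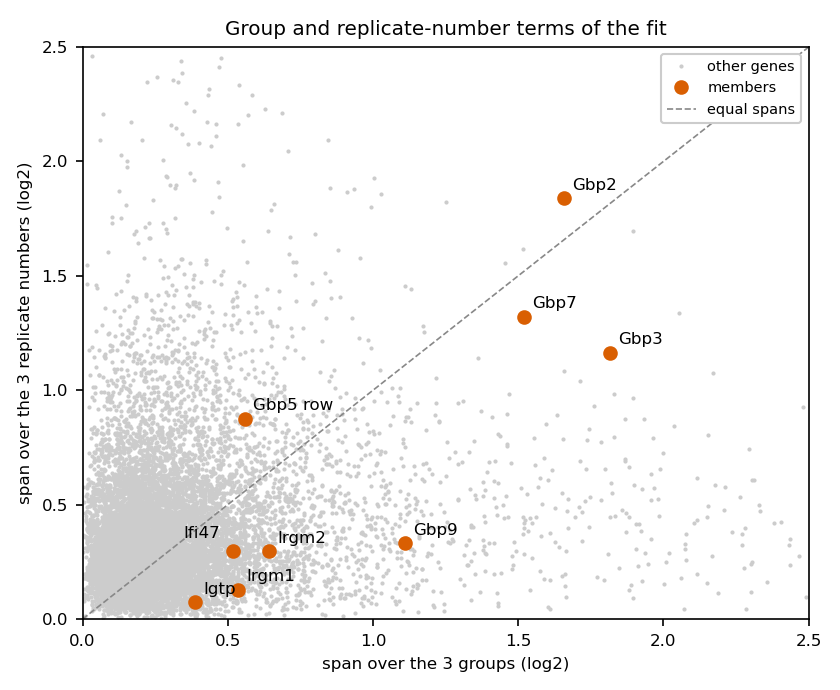
Span of the fitted group terms (x axis, log2) and of the replicate-number terms (y axis, log2) for all genes (grey) and the members (orange), with equal spans dashed; 69 genes lie beyond the axes. Gbp2 and the row named Gbp5 lie above the line, and Gbp3, Gbp7 and Gbp9 below it.

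The 3 nearest tested genes outside the families on each side of a locus were examined to see whether whole regions moved. Their distances ran from 9.76 kilobases (Trim7, before Irgm1) to 3455 kilobases (Rap1gds1, before the GBPs of chromosome 3), so not all were adjacent. Over all loci, with some genes counted at more than 1, 3 of 30 neighbours were called for TTP vs GFP, beside 9.16% of all genes (5.08% lower). For TTP-AA vs GFP 6 of the 30 were called, beside 17.9% of all genes, and for TTP-AA vs TTP 9, beside 28.6%. Gbp7, Gbp3, the row named Gbp5 and Gbp2 lie in 1 cluster on chromosome 3. Of the 3 nearest tested genes on each side of it, 3 of 6 were called lower in TTP than in GFP. These were Rap1gds1, Pdlim5 and Gtf2b, chosen here by position. Of the others only Unc5c lay above 0, and the 6 ranged from -0.47 to 0.07. The median of all chromosome 3 genes was -0.20 in that comparison. After centring on that median Gbp3 remained called and Gbp7 did not (-0.56, adjusted p = 0.0735). For TTP-AA vs TTP the 6 neighbours ranged from -0.42 to 0.33, with 1 called higher and 1 lower, and the chromosome median was 0.09. The differences of Gbp2, Gbp3 and Gbp7, 1.52 to 1.82, were above all 6 of these. Around Ifi47 no neighbour was called by the DESeq2 test in any comparison, and 1 of the 6, Cnot6, had an unadjusted p under 0.05 in both comparisons of TTP-AA. The 6 around Irgm1, partly the same genes, ranged from -0.24 to 0.12 for TTP vs GFP, all of them above Irgm1 at -0.45. In both comparisons of TTP-AA 1 of these 6 was called, Trim41, which was lower, by 0.26 relative to GFP and by 0.25 relative to TTP. Around Gbp9 none of the 6 was called for TTP vs GFP (DESeq2 adjusted p, with 1 at an unadjusted p under 0.05). In TTP-AA, 2 of them were called higher than in TTP, as was Gbp9. These were Lrrc8b, by 0.45 ± 0.15, and Lrrc8d, by 0.35 ± 0.09. Around Igtp and Irgm2, 4 of 6 neighbours were called between TTP-AA and TTP, 1 higher and 3 lower, over a range of -0.45 to 0.68. For chromosome 11 the median was 0.03 in TTP relative to GFP and -0.14 in TTP-AA relative to TTP.

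Other members of both families were mostly too low to test. 4 other GBP genes were in the library table (Gbp4, Gbp6, Gbp8 and Gbp11), and the row named Gbp6 was the only one in a comparison table, with a mean of 11.7. It rose by 0.49 ± 0.18 in TTP-AA relative to GFP (adjusted p = 0.0397) and by 0.60 ± 0.18 relative to TTP (adjusted p = 0.00427). Its identifier, ENSMUSG00000079362, is Gm43302 in the later annotation, and it is named here because of its values. Of 10 other IRG genes in the library table, 4 were tested. 9930111J21Rik2 fell by 0.52 ± 0.15 in TTP (adjusted p = 0.0128) and by 0.64 ± 0.15 in TTP-AA (adjusted p = 0.00051), both relative to GFP. 9930111J21Rik1 differed by -0.39 ± 0.23 and -0.40 ± 0.23 in the same comparisons and was not called. Irgq, an IRG relative without interferon induction, had differences of -0.12 ± 0.16 and 0.14 ± 0.16 and was not called either. None of the 4 was called for TTP-AA vs TTP (DESeq2 adjusted p, with no unadjusted p under 0.05 either).

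The pathway that induces these genes was followed through 13 genes of interferon receptors and signalling, all of them tested. In TTP 2 were called lower than in GFP and none higher, while in TTP-AA 5 were called higher and 1 lower than in GFP. TTP-AA was called higher than TTP in 7 of the 13 and lower in none. Of all genes, 14.0% were called higher there and 14.6% lower. The shares over all genes for the comparisons with GFP are those given above. The largest differences of TTP-AA from TTP were in Socs1, a feedback inhibitor of the receptor kinases, at 1.52 ± 0.21 (adjusted p = 1.1e-11), in Irf9, a transcription factor of interferon responses, at 0.98 ± 0.16 (adjusted p = 1.5e-08), and in Ifnar1, a chain of the type I interferon receptor, at 0.75 ± 0.12 (adjusted p = 3.7e-09). Irf9 also fell by 0.91 ± 0.16 in TTP relative to GFP (adjusted p = 6.2e-07). Among the interferons themselves only Ifnb1 was in the library table, with a mean of 81.0. It differed by -0.11 ± 0.19 in TTP relative to GFP (adjusted p = 0.817) and by 0.27 ± 0.19 in TTP-AA relative to TTP (adjusted p = 0.289).

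Genes that work beside the members were counted in the same way. Between TTP-AA and TTP 28.6% of all genes were called, 14.0% higher, and the counts here are set beside that. Of 14 tested genes of the wider dynamin superfamily, 5 were called (35.7%), 3 higher and 2 lower in TTP-AA than in TTP, a share near that of all genes. Mx2, an antiviral dynamin-like GTPase, led them at 1.23 ± 0.23 (adjusted p = 2.9e-06) and had fallen by 0.91 ± 0.23 in TTP relative to GFP (adjusted p = 0.00242). Dnm3 rose by 0.81 ± 0.23 (adjusted p = 0.00233) and Dnm1 by 0.48 ± 0.17 (adjusted p = 0.024), both dynamins of membrane fission. The ATG8 conjugation genes, whose products guide GBPs and IRGs to vacuoles, had 5 of 11 called, all higher in TTP-AA than in TTP, led by Map1lc3b (0.42 ± 0.08), Gabarap (0.42 ± 0.08) and Atg12 (0.40 ± 0.11), with adjusted p of 8e-06, 1.1e-05 and 0.00194. Of the 6 inflammasome genes 4 were called higher. Among them were Pycard, the adaptor, at 1.16 ± 0.09, Casp4, the sensor of cytosolic LPS, at 0.79 ± 0.19, and Casp1 at 0.53 ± 0.12. Their adjusted p by the DESeq2 test were 3.1e-38, 0.00029 and 0.00013. For TTP vs GFP each of these 3 lists had 1 gene called, and it was lower. That was 7.69% of the dynamin superfamily, 9.09% of ATG8 conjugation and 16.7% of the 6 inflammasome genes, beside 9.16% of all genes (5.08% lower). The first 2 shares were near that of all genes. Medians for TTP-AA vs TTP were -0.08 for the dynamin superfamily, 0.24 for ATG8 conjugation and 0.43 for the inflammasome.

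Markers of macrophages and dendritic cells were tested in the same tables. Of the 7 macrophage markers tested for TTP vs GFP, 2 were lower and 5 not called. Of 8 tested for TTP-AA vs GFP, 1 was higher and 7 not called, and between TTP-AA and TTP 3 were higher, 1 lower and 4 not called. Of all genes, 9.16%, 17.9% and 28.6% were called in these comparisons in turn. Adgre1, on whose product the cells were sorted before transduction, fell by 0.75 ± 0.14 in TTP relative to GFP (adjusted p = 1.3e-05) and rose by 0.68 ± 0.14 in TTP-AA (adjusted p = 7e-05). Itgam, the other sorting marker, was called in none of the comparisons (differences of 0.06 to 0.20, unadjusted p = 0.0279 for TTP-AA vs GFP). Csf1r and Cd68 were not called either by the DESeq2 test. Ptprc fell by 0.34 ± 0.08 in TTP-AA relative to TTP (adjusted p = 0.00031). Fcgr1, a receptor for IgG, fell by 1.20 ± 0.18 in TTP relative to GFP (adjusted p = 3e-09) and was at -0.39 ± 0.18 in TTP-AA relative to GFP (adjusted p = 0.121). Zbtb46, a dendritic cell factor, fell by 1.10 ± 0.23 in TTP-AA relative to GFP (adjusted p = 5.2e-05) from a mean of 34.2. Flt3, the other dendritic cell marker tested, was called in none of the comparisons (differences of -0.22 to -0.04, no unadjusted p under 0.05). The named markers were chosen after their values were seen. The part of cell state in the members' differences was not tested, and in bulk RNA a smaller share of cells with a transcript and less of it in each cell cannot be told apart.

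The genes whose changes were most like the members' were found among 10417 genes with a mean of at least 100. Distance was taken from the members' median point in the plane of both changes against GFP. That point, at -0.57 and 0.38, joined the change of Gbp9 in TTP with that of the row named Gbp5 in TTP-AA. It was no single member's pattern, as the medians were -0.57 and 0.76 over the GBPs and -0.42 and -0.18 over the IRGs. Vamp4, a vesicle fusion protein, was nearest, with changes of -0.58 ± 0.13 and 0.43 ± 0.13, a distance of 0.05. It was followed by Rnf213, an interferon-inducible ubiquitin ligase with an AAA ATPase core, at -0.62 ± 0.12 and 0.43 ± 0.12, then by Apoc2, Gm8995 and Ptpn22, at distances of 0.07 to 0.08. Likeness was measured over 3 groups only.

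The 3′UTRs were searched for the letters of AU-rich elements, since TTP binds there. The pentamer ATTTA occurred in 6 of the 10 members and in 66.08% of 11415 tested genes with an annotated 3′UTR. Gbp9 held 11, Gbp7 held 7, Gbp3 and Irgm2 held 2 each, Ifi47 held 1, and the others tested held 0. These counts are not scaled to length. Gbp7 and Gbp9 had the longest 3′UTRs of the members, 3575 and 2425 bases, beside a median of 960 over the tested genes. The longer TATTTAT, close to the preferred site of TTP, occurred in Gbp9 only, 2 times, and in 27.45% of the tested genes. Whether a site goes with a change in level was not tested. These are the sites of Gbp9, beginning at bases 1226 and 1976 of its 3′UTR of 2425 bases, and of Gbp3, at bases 23 and 199 of 515, on the strand of the mRNA.
Gbp9, base 1226: tacatcacattTATTTATttgcaaagtaa
Gbp9, base 1976: cagtgtgatctTATTTATaaaatagttag
Gbp3, base 23: tctgggaaggaATTTAtaaaatccagg
Gbp3, base 199: ttacctattatATTTAaggttaaagat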

How the data were processed

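Total RNA was sequenced in 9 libraries, grouped by their titles. Per the labels and methods, the authors trimmed reads with Trim Galore, aligned them with TopHat to GRCm38 allowing up to 2 placements, counted with HTSeq and fitted DESeq2 1.6.3, named by the authors, with library date and condition. Use of strand was not stated. The deposited library signal proved to be fitted means. The authors' comparisons give a deposited mean signal, a log2 fold change with SE, a Wald score and p-values. Whether changes were shrunk was not stated. No SE exceeded 0.23, down to a mean of 8.98, so the changes and folds of genes with few reads may be shrunken values. No model could be refitted, so these deposited statistics were used, over 11977 genes (TTP vs GFP) or 13205.

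Library factors were recovered from constant ratios between same-numbered libraries and, between numbers, from the median gene (mean of 50 or more). Intervals are 1.96 SE. Transcripts, GC content and overlaps came from GENCODE mouse release 21 on GRCm38, and promoters from RefSeq GRCm38.p6. The members and lists were chosen with earlier results of these data known. The named genes followed a rule: all members, family genes with a mean of at least 20, up to 3 called genes per other list, the 5 most like genes with a mean of at least 100, and Zfp36. Replicates are biological per the methods. 1 item is not reported here. Alternatives were a division of Wald scores by their central spread, chromosome and median centring, removal of GC and length trends, a mean of at least 50, and the Benjamini-Yekutieli adjustment. Steps were tested on simulated data in Python 3.11.15 with numpy 2.4.6, pandas 2.3.3 and scipy 1.17.1.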

Additional observations from a re-analysis of the deposited data

Results flagged for a closer look

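The effect against GFP differed between the TTP forms for 7 members, by the authors' DESeq2 test of TTP-AA vs TTP. On the log2 scale the difference was 1.82 for Gbp3, 1.66 for Gbp2, 1.52 for Gbp7 and 1.11 for Gbp9, all of which lay below GFP in TTP and above it in TTP-AA. It was 0.56 for the row named Gbp5 and 0.54 for Irgm1, and -0.51 for Ifi47, where TTP stood near GFP and TTP-AA below it. Beside these calls stand 28.6% of all genes, and Gbp9, the row named Gbp5, Irgm1 and Ifi47 were not called after the Wald scores had been scaled to a central spread of 1.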

How the results depend on the processing

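Of 159 results for single members under 6 alternatives, 139 kept their direction and side of the threshold, 17 were no longer called, 1 became called (Irgm2 for TTP-AA vs TTP after chromosome centring) and 2 uncalled differences changed sign. Those were the row named Gbp5, at 0.026 for TTP vs GFP after chromosome centring, and Ifi47, at 0.0079 for TTP vs GFP after removal of the GC and length trends. Wald scores scaled to a central spread of 1 left 0 members called in TTP relative to GFP (2.06% of all genes), 0 in TTP-AA relative to GFP (1.49%) and 3 in TTP-AA relative to TTP (2.01%). With an unadjusted p under 0.05 after that scaling there were 4, 4 and 5 members. The cause was not tested. The Benjamini-Yekutieli adjustment left 2 members for TTP vs GFP, Gbp3 and Gbp7. All 18 medians under the alternatives kept their sign and moved by less than a typical SE, but that of TTP-AA vs GFP went from 0.38 to 0.24 where a mean of at least 50 was required. The alternative with the longest 3′UTR left the motif counts of the members at 6 and 1.

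No paired analysis was possible because the library values are fitted means that already hold a replicate term and have no residual. For the same reason the fits without each library, without the replicate block and with another pseudocount were not run. Gbp9 was left out where a mean of at least 50 was required. Levels of Gbp9 and the row named Gbp6 rest on few reads, and no count per library was analysed here.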
